A study of Mus musculus with 2 samples.

Results

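The R-loop peaks described here are those that lay wholly within introns of protein-coding genes shorter than 300 kb. In the list of R-loop peaks from neural stem/progenitor cells (NSPCs), a peak was kept when it fell entirely inside the body of such a gene in the GENCODE M1 annotation of mm9 and overlapped no exon of any annotated gene. This rule retained 5876 of 22132 peaks, or 26.5%. They were held by 3441 of 21839 protein-coding genes under 300 kb, 15.8% of them, and covered 8.35 Mb. The rule used position and annotation and no base composition. It limited the distance to the gene start, since no peak could touch an exon and no host reached 300 kb.

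An R-loop is a structure in which RNA pairs with the template strand of DNA and leaves the coding strand unpaired. Hybrids of a G-rich RNA with a C-rich template are thermodynamically stable, and a coding strand with more G than C, known as GC skew, is a recognised feature of R-loop forming sequences near promoters. Introns are transcribed with the rest of the gene and removed from the RNA by splicing. The first intron is often the longest of a gene and frequently holds regulatory DNA.

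The NSPCs were primary cells cultured from frontal brains of C57BL/6 mice at postnatal day 7, and per the paper's methods they had been exposed to aphidicolin, an inhibitor of replicative DNA polymerases, to impose mild replication stress. Genomic DNA was cut with restriction enzymes, RNA:DNA hybrids were recovered with the S9.6 antibody (DRIP), and several DRIP reactions were pooled for each library. The deposited list holds positions without any signal, so its depth is unknown. Per the paper, the list came from several biological replicates with repeat DRIP reactions of each. How they were merged into 1 list is not given in the sources used here, and the input sample was not analysed here. Values are therefore descriptions of this list without an error between replicates. Intervals in square brackets are 95% Wilson intervals for shares and binomial rank intervals for medians. They cover counting error only, and peaks within a gene are not independent.

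Sequences from a few named peaks are printed first, as extremes and not as typical peak sequence. Each is the stretch of 120 bp within a peak that had the largest excess of G over C, read from mm9 in the direction of the gene. Capitals mark runs of at least 3 G. The stretches in Mboat2 and Sox13 came from wide peaks in the first intron, and those in Tcf7l2 and Lin7a were chosen because the stretches themselves are simple repeats. The Lin7a peak of 0.522 kb was a tract throughout, whereas the Tcf7l2 stretch lay in a peak of 4.98 kb with 201 tract bases.

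The stretches from Mboat2, Sox13, Tcf7l2 and Lin7a are as follows.
Mboat2, chr12:25548149-25548268, plus strand: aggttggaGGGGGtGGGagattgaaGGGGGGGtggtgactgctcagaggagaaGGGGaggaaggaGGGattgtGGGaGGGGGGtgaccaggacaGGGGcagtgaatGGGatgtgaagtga
Sox13, chr1:135296615-135296734, minus strand: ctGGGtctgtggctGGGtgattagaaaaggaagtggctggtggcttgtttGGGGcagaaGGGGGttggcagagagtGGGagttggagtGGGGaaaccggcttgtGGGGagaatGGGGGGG
Tcf7l2, chr19:55864873-55864992, plus strand: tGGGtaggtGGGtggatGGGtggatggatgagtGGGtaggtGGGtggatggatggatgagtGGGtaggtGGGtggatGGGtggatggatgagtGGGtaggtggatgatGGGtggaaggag
Lin7a, chr10:106780146-106780265, plus strand: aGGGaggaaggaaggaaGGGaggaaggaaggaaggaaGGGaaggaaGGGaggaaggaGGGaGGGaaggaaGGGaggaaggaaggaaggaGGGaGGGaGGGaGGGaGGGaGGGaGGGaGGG

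In the Mboat2 stretch, 66 of 120 bases were G and 7 were C, and in Sox13 the numbers were 62 and 10. The G runs of these stretches were separated by mixed sequence. Over the whole Mboat2 peak of 16.0 kb the skew, (G − C)/(G + C), was 0.0490. No stretch was chosen from introns outside peaks. Clusters of G runs were about as frequent on either strand. A pattern of 4 runs of at least 3 G, separated by 1 to 7 bases, was sought in 5828 peaks with hosts on a single strand. It was present on the coding strand in 14.0% [13.2, 14.9] and on the template strand in 13.8% [13.0, 14.8]. The stretch in Lin7a had 75 G and no C or T at all, and that in Tcf7l2 had 70 G and no C.

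The opposite extreme was found in peaks whose coding strand was rich in C. For 1 of these, the 120 bp with the largest excess of C over G are shown and capitals mark runs of at least 3 C.
1700018B08Rik, chr8:124061322-124061441, minus strand: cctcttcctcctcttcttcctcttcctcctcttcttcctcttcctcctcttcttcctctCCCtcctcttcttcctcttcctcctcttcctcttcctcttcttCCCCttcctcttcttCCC

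The stretch in 1700018B08Rik had 63 C and no G. It is a tract of C and T on the coding strand, which places the purine strand on the template.

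Purely intronic peaks were small. Their median width was 0.891 kb [0.869, 0.919], with 5% below 0.244 kb and 5% above 4.21 kb, and 23.1% were under 500 bp. The widest measured 31.3 kb. By comparison, the median width was 2.04 kb for 5177 peaks that lay inside a gene under 300 kb and touched an exon, 2.71 kb for 2875 peaks over the start of a protein-coding gene, and 0.724 kb for 1091 intronic peaks whose host was 300 kb or longer. These classes were defined by annotation, and a wider peak is more likely to touch an exon, so that the rule itself favoured narrow peaks. Another peak lay within 1 kb of 10.4% of the purely intronic peaks and within 10 bp of 3.81% of them. The median gap to the nearest other peak was 8.41 kb [8.02, 8.85].

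Most purely intronic peaks had a single interpretable host. In 5792 cases (98.6%) 1 gene held the peak, 5633 (95.9%) overlapped the body of no other annotated gene of any kind, and 61 also lay in a gene of 300 kb or more. Hosts on both strands were found for 48 peaks, which were left out of every value that needs a strand or an intron number. This left 5828 peaks, with 2930 in genes on the plus strand and 2898 in genes on the minus strand.

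To determine where in the gene these peaks lay, introns were numbered from the 5′ end of the longest transcript that spanned the peak. The first intron held 2130 of 5828 peaks, 36.5% [35.3, 37.8], while first introns made up 29.0% of the exon-free intron bases of all protein-coding genes under 300 kb. Bases were counted on the longest transcript of each gene, which was not always the transcript that gave a peak its number. Intron 2 held 989 peaks (17.0%) against 15.7% of bases. Intron 3 held 9.75% against 10.2%, intron 4 6.52% against 7.12% and intron 5 4.82% against 5.42%. The 1480 peaks in intron 6 or later were 25.4% [24.3, 26.5] of the total, against 32.5% of bases. The last intron of genes with several held 470 peaks, 8.06% [7.39, 8.79], against 8.56% of bases.

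The same order held for the portion of intron sequence that these peaks covered. Coverage was 1.96% of bases in first introns, 1.58% in intron 2, 1.20% in intron 3, 1.11% in intron 4, 1.01% in intron 5 and 0.795% from intron 6 on. In numbers, first introns held 11.6 peaks per Mb and all later introns 8.25 per Mb, with peaks and bases again taken from transcripts that can differ. When intron numbers were taken from the transcript with the most exons, the share in the first intron was 35%.

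**Figure D1:**
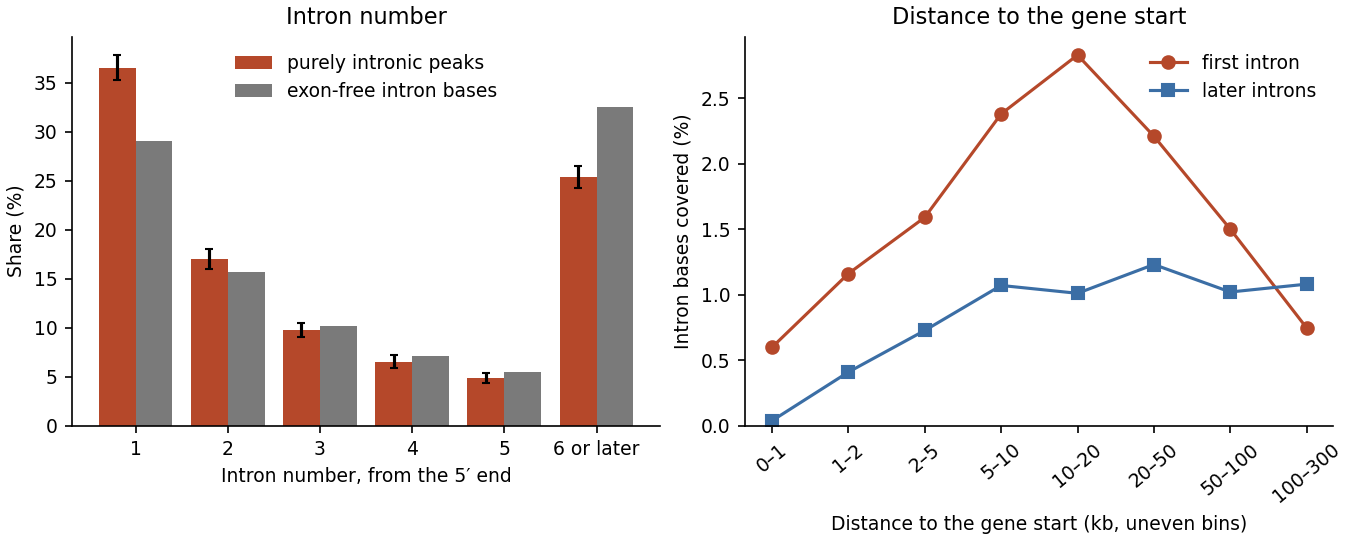
Left, share of purely intronic peaks (red bars, with 95% Wilson intervals) and of exon-free intron bases (grey bars) by intron number from the 5′ end. Right, percent of exon-free intron bases covered by purely intronic peaks against distance to the gene start in kb, for first introns (red circles) and later introns (blue squares); coverage of first introns reached 2.83% at 10 to 20 kb.

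The peaks lay far from the annotated gene start. Their median distance to the TSS of the host was 27.3 kb [25.8, 28.7], with 5% nearer than 1.76 kb and 5% beyond 158 kb, and 56.7% [55.4, 58.0] were nearer to the TSS than to the gene end. Many genes have several annotated starts, and the median distance to the nearest start of any transcript of the host was 12.3 kb [11.7, 12.9]. The median to the nearest start of any gene was 9.72 kb [9.40, 10.1], and 864 peaks (14.7%) lay within 2 kb of an annotated start.

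Because first introns lie near the TSS, intron number and distance were also considered together. Within 1 kb of the TSS, purely intronic peaks covered 0.597% of first intron bases. Coverage of first introns was 1.16% at 1 to 2 kb, 1.59% at 2 to 5 kb and 2.38% at 5 to 10 kb, and highest at 10 to 20 kb with 2.83%. It was 2.21% at 20 to 50 kb, 1.5% at 50 to 100 kb and 0.745% beyond 100 kb. In later introns coverage was 0.726% at 2 to 5 kb and remained between 1.01% and 1.23% at every distance from 5 kb on. At a matched distance of 10 to 20 kb, first introns were covered 2.80 times as densely as later introns, and at 50 to 100 kb 1.47 times. The order turned beyond 100 kb, where the ratio was 0.692, although only 7.48 Mb of first intron lay there. A peak that reached the first exon was not counted, which limits the values nearest the TSS by construction.

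On the coding strand, G exceeded C in 3723 of 5828 purely intronic peaks, 63.9% [62.6, 65.1]. Of 509143 intron windows of 1 kb outside every peak, 57.5% had more G than C. Peaks differ in width and these windows do not, so the shares are not directly comparable. Among 1 kb windows without a tract (defined below), G exceeded C in 68.2% of those lying mostly in a peak and 58.2% of those outside peaks. The median GC skew of the peaks, defined as (G − C)/(G + C), was 0.0486 [0.0443, 0.0526]. The values were nearly the same for genes on the plus strand (63.7% [61.9, 65.4]) and on the minus strand (64.1% [62.3, 65.8]). A and T showed the reverse order, with A exceeding T in 35% [33.8, 36.2] of peaks. No share for A and T in introns outside peaks is given here, so this value has no background. T was therefore more common than A, and G more common than C, on the strand that matches the RNA.

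Introns have a GC skew of their own, and each peak was compared with the remaining sequence of its intron outside peaks and exons, where at least 1000 bases were left. The remainder had more G than C in 75.9% [74.7, 77.0] of 5630 cases, with a median skew of 0.0260 [0.0248, 0.0273]. The skew of the peak was above that of the remainder in 3156 cases, 56.1% [54.8, 57.3]. A long remainder averages over more sequence than a short peak, so that its skew is far less variable, and shares above 0 for peak and remainder are not directly comparable. GC content differed more uniformly. It was a median of 47.2% in the peaks and 44.9% in the remainder, and was higher in the peak in 4193 of 5630 cases, 74.5% [73.3, 75.6].

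A number of purely intronic peaks held simple sequence made of 2 letters, such as the tracts of A and G or of C and T printed above. A tract was defined as any run of 100-bp windows in which at least 95 bases belonged to 1 pair of letters, with at least 10 of each, and a peak was counted when it held at least 50 tract bases. By this measure 1043 of 5876 peaks, 17.8% [16.8, 18.7], held a tract. Tracts made up 3.15% of the bases of purely intronic peaks and 0.684% of the remainder of their introns, and 4.14% of the 1 kb intron windows outside peaks held one compared with 9.05% of windows lying mostly in a purely intronic peak. The share was 9.02% [8.27, 9.83] among peaks inside genes under 300 kb that touched an exon, 7.69% [6.77, 8.72] among peaks over a gene start and 31.8% [29.1, 34.6] among intronic peaks of hosts of 300 kb or more.

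Both orientations were represented among these tracts. On the coding strand, 367 peaks held a tract of A and G, 494 a tract of C and T, 118 a tract of G and T and 83 a tract of A and C. This order can be set against all tracts in the exon-free introns of the same genes, which also held more tracts of C and T (13452) than of A and G (7896). Of the A and G tracts, 5.28% [4.81, 5.80] were met by a purely intronic peak, and of the C and T tracts 4.07% [3.75, 4.42]. The portions were 7.59% [6.48, 8.87] for G and T and 7.71% [6.32, 9.39] for A and C.

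Longer tracts were met more often in each of the 4 kinds. Among tracts of A and G, 3.34% of those under 150 bp and 15.7% [13.1, 18.7] of those of at least 300 bp were met, and among tracts of C and T the values were 2.57% and 15.4% [13.4, 17.6]. For G and T they were 4.98% and 34.5% [23.6, 47.3], and for A and C 5.73% and 35.4% [23.4, 49.6], with only 58 and 48 tracts in the longest class. A longer tract has more bases that a peak can touch. The purine strands were also compared at matched length. At 200 to 300 bp, tracts of A and G on the coding strand were met more often than tracts of C and T, with 7.41% [6.15, 8.91] and 4.07% [3.37, 4.91]. The order was the same at 150 to 200 bp (4.13% and 2.96%), where the intervals overlapped, and the intervals at 300 bp and above overlapped almost completely.

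**Figure D2:**
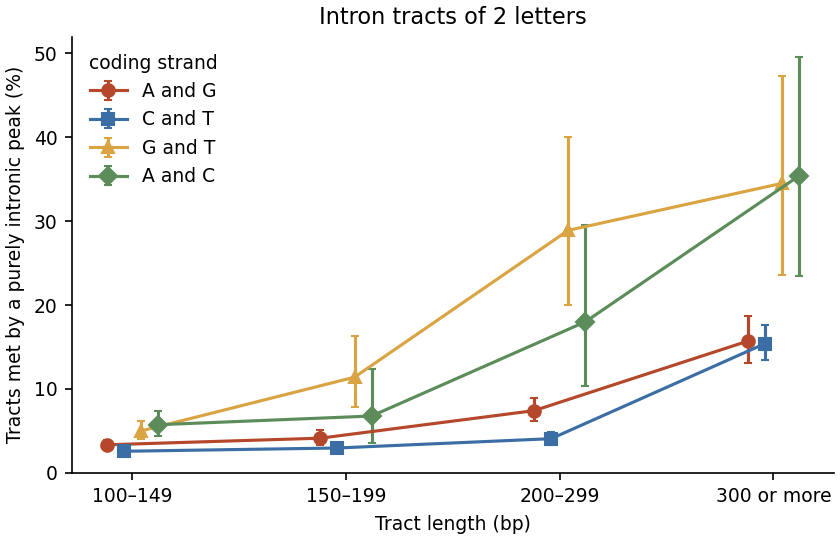
Percent of tracts of 2 letters in exon-free introns that were met by a purely intronic peak, by tract length in bp and by the letters on the coding strand; bars are 95% Wilson intervals. The share was larger for longer tracts of all 4 kinds, and tracts of A and G were met more often than tracts of C and T at 200 to 300 bp (7.41% and 4.07%) but not clearly at 300 bp or more (15.7% and 15.4%).

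Peaks with and without a tract differed in skew. Of 1036 tract peaks with a strand, 50.5% [47.4, 53.5] had more G than C on the coding strand, with 5% below a skew of -0.787 and 5% above 0.735. Of the 4792 peaks without a tract, 66.8% [65.4, 68.1] had more G than C, and their skew ran from -0.332 to 0.407 between the same percentiles. A skew of at least 0.4 in either direction was measured in 882 peaks. Tracts were present in 51.2% [48.0, 54.5] of these, 89.3% were under 1 kb wide, and G exceeded C in 49.7% [46.4, 53.0]. Among the 4946 peaks with a smaller skew, G exceeded C in 66.4% [65.1, 67.7]. By count, the excess of G over C was thus seen among the moderately skewed peaks, whereas extremely skewed peaks were split evenly between the strands. This split is not corrected for the introns, which held more tracts of C and T (13452) than of A and G (7896). Among 1 kb intron windows without a tract, 12.3% were in a peak at a skew of 0.4 or more and 4.56% at 0.3 to 0.4. On the C-rich side the share was 5.42% for all windows below -0.3, so these cut-offs are not matched. Tract peaks were also less often in the first intron (31.8% [29.0, 34.7] against 37.6% [36.2, 39.0] without a tract) and lay farther from the TSS, at a median of 33.6 kb [30.6, 36.1] against 25.5 kb [24.4, 26.7].

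Among peaks without a tract, G exceeded C in 71.3% [69.2, 73.4] of 1801 in the first intron and 64.0% [62.3, 65.7] of 2991 in later introns. A exceeded T in 29.0% [27.0, 31.2] and 37.5% [35.8, 39.3], respectively. By distance to the TSS, the share with more G was 69.9% [64.5, 74.8] below 2 kb, 73.2% [70.3, 76.0] at 2 to 10 kb, 67% [64.9, 69.0] at 10 to 50 kb and 61.7% [59.2, 64.2] from 50 kb on. Width had a larger range. G exceeded C in 56.9% [53.9, 59.8] of peaks under 500 bp, 62.4% at 500 bp to 1 kb, 69.9% at 1 to 2 kb and 79.8% [77.3, 82.2] at 2 kb or more. The median skew of these width classes was 0.0419, 0.0458, 0.0553 and 0.0544, while the spread of the skew narrowed, from between -0.486 and 0.543 below 500 bp to between -0.0553 and 0.170 at 2 kb or more (5th and 95th percentiles).

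To see how composition changed at the edges of the peaks, bases were summed over all peaks in the direction of the gene, with flanks of 3 kb taken from the same intron. Without a tract, GC skew over first intron peaks was 0.0565 inside, 0.0471 in the 1 kb before the peak and 0.0364 farther upstream. After the peak it was 0.0449 in the first 1 kb and 0.0273 at 1 to 3 kb. Later introns followed the same course at lower values, with 0.0448 inside, 0.0417 and 0.0217 before, and 0.0345 and 0.0156 after the peak. The flanks were cut into steps of 100 bp and each peak into 20 equal parts. The highest single value of either profile lay outside the peak, just before its upstream edge. It reached 0.0708 there in first introns and 0.0560 in later introns, against at most 0.0666 and 0.0549 in any part inside. Wide peaks weigh more inside than in the flanks, so these maxima are not directly comparable. In later introns the parts inside ranged from 0.0368 to 0.0549. The elevated skew thus extended beyond both edges. GC content changed more abruptly, from 46.3% in the 1 kb before first intron peaks to 48.0% inside and 45.8% after, and from 45.0% to 47.2% and 45.2% in later introns. Over tract peaks the summed skew was 0.00755 inside and GC content 47.3%, against 44.3% on either side.

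**Figure D3:**
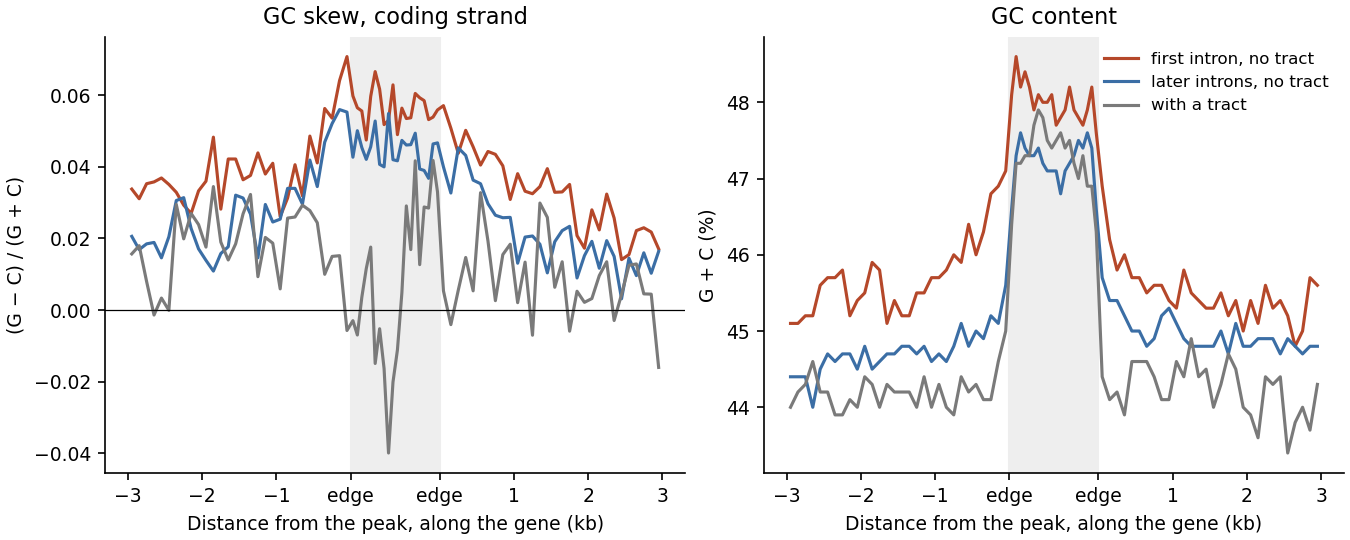
GC skew (left) and GC content in percent (right) along the coding strand, summed over purely intronic peaks without a tract in first introns (red) and later introns (blue) and over peaks with a tract (grey). Peaks are scaled to the same width (shaded) and the flanks run to 3 kb in 100-bp steps within the same intron; skew of first intron peaks was 0.0565 inside, 0.0708 just before the upstream edge and 0.0273 at 1 to 3 kb downstream.

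To relate composition to the presence of a peak along all introns, the exon-free introns were divided into 536355 windows of 1 kb, of which 7887 lay in a purely intronic peak with at least 500 bases. The share of windows in a peak was larger the higher the GC content. It was 0.0744% below 35% GC, 0.314% at 35 to 40%, 1.05% at 40 to 45%, 2.44% at 45 to 50% and 3.68% at 50 to 55%, and 4.38% from 60% on. In every one of these bins the share was higher in first introns, for example 3.24% against 2.06% at 45 to 50% GC and 4.92% against 3.00% at 50 to 55%. The higher coverage of first introns was thus also present between windows of like GC content.

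With respect to skew, windows without a tract were in a peak least often at a skew of -0.2 to -0.1, at 0.885%. The share was 1.07% at -0.1 to 0, 1.32% at 0 to 0.1, 1.86% at 0.1 to 0.2, 2.87% at 0.2 to 0.3 and 4.56% at 0.3 to 0.4, and reached 12.3% in the 806 windows of 0.4 or more. It was also high on the C-rich side, at 5.42% of 1825 windows below -0.3. Within windows of 45 to 55% GC the course was the same, from 1.67% at -0.2 to -0.1 to 3.54% at 0.1 to 0.2 and 12.2% at 0.4 or more, with 4.20% below -0.3. Equal skews of opposite sign can be set side by side: 1.86% at 0.1 to 0.2 and 0.885% at -0.2 to -0.1, and 2.87% at 0.2 to 0.3 and 1.23% at -0.3 to -0.2. In each of these pairs the window with more G on the coding strand was more often in a peak. Beyond 0.3 the G-rich side was divided at 0.4 and the C-rich side was not. There, the 4.56% at 0.3 to 0.4 was lower than the 5.42% below -0.3, and the 12.3% at 0.4 or more was higher.

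**Figure D4:**
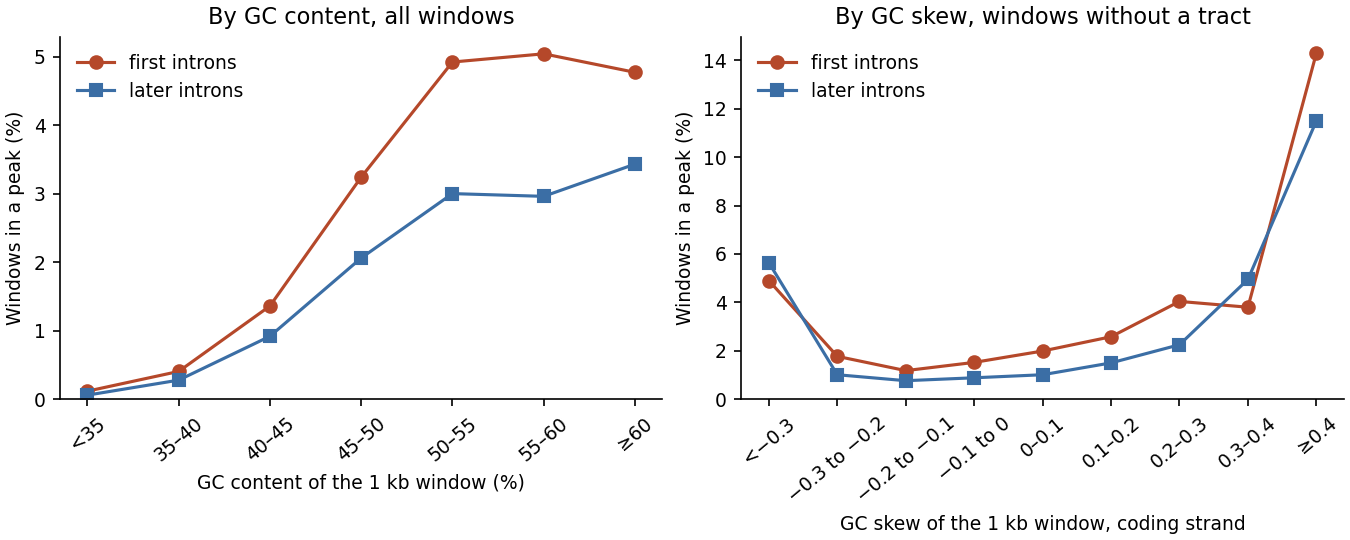
Percent of 1 kb windows of exon-free introns that lay in a purely intronic peak, by GC content of the window in percent (left, all windows) and by GC skew on the coding strand (right, windows without a tract), for first introns (red circles) and later introns (blue squares). The share was larger at higher GC content up to 55%, and was lowest at a skew of -0.2 to -0.1 and highest at 0.4 or more.

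The hosts were mainly genes of intermediate or large size. A purely intronic peak was present in 1.26% of 8861 genes under 10 kb, 12.4% of 6152 genes of 10 to 30 kb, 32.0% of 4953 genes of 30 to 100 kb and 52.3% of 1873 genes of 100 to 300 kb. Per Mb of intron the numbers were far closer, at 5.92, 9.41, 10.3 and 8.67 peaks. The start of the gene lay in a peak more often among hosts than among genes without a purely intronic peak in each size class. The values were 22.3% [15.6, 30.9] and 12.8% [12.1, 13.5] below 10 kb, 21.9% [19.1, 25] and 15.0% [14.1, 16.0] at 10 to 30 kb, 25.9% [23.8, 28.1] and 13.2% [12.1, 14.4] at 30 to 100 kb and 22.1% [19.7, 24.8] and 9.18% [7.46, 11.3] at 100 to 300 kb. In every size class most hosts had no peak at the annotated start.

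Of 3372 genes to which a peak was assigned as the main host, 2210 (65.5%) had 1 purely intronic peak and 986 had 2 to 4. At the other end, 176 genes (5.22%) held 5 or more, and together 1199 peaks, 20.4% of the total. Ctif, which encodes a translation initiation factor that acts with the nuclear cap-binding complex, held the most, with 18 peaks in 7 of 11 introns that covered 22.1% of its intron bases. Chst11, a chondroitin sulfotransferase gene, held 16 peaks, 8 in each of its 2 introns, between 6.27 and 191 kb from the TSS. In Trio, a guanine nucleotide exchange factor gene with 56 introns, 15 peaks lay in 6 introns and 8 of them in the first. 4933407C03Rik held 14, of which 11 were in the first intron.

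The other genes with most peaks were of varied function. Rptor, which encodes a subunit of the mTORC1 kinase complex, held 14 peaks, and Ano6, a phospholipid scramblase gene, and Ppp3ca, which encodes a catalytic subunit of calcineurin, held 13 each. Mbnl2 (a splicing regulator), Fyn (a Src family kinase), Foxn3 (a forkhead factor) and Fndc3b held 12 each, and the potassium channel gene Kcnd3 held 11. In Rptor 12 of 14 peaks had more G than C on the coding strand, and in Ppp3ca 10 of 13, whereas in Mbnl2, Fyn and Kcnd3 this was true of 4 peaks each. The orientation of skew therefore varied between hosts that were alike in their number of peaks. All 12 genes were between 156 and 297 kb long.

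**Figure D5:**
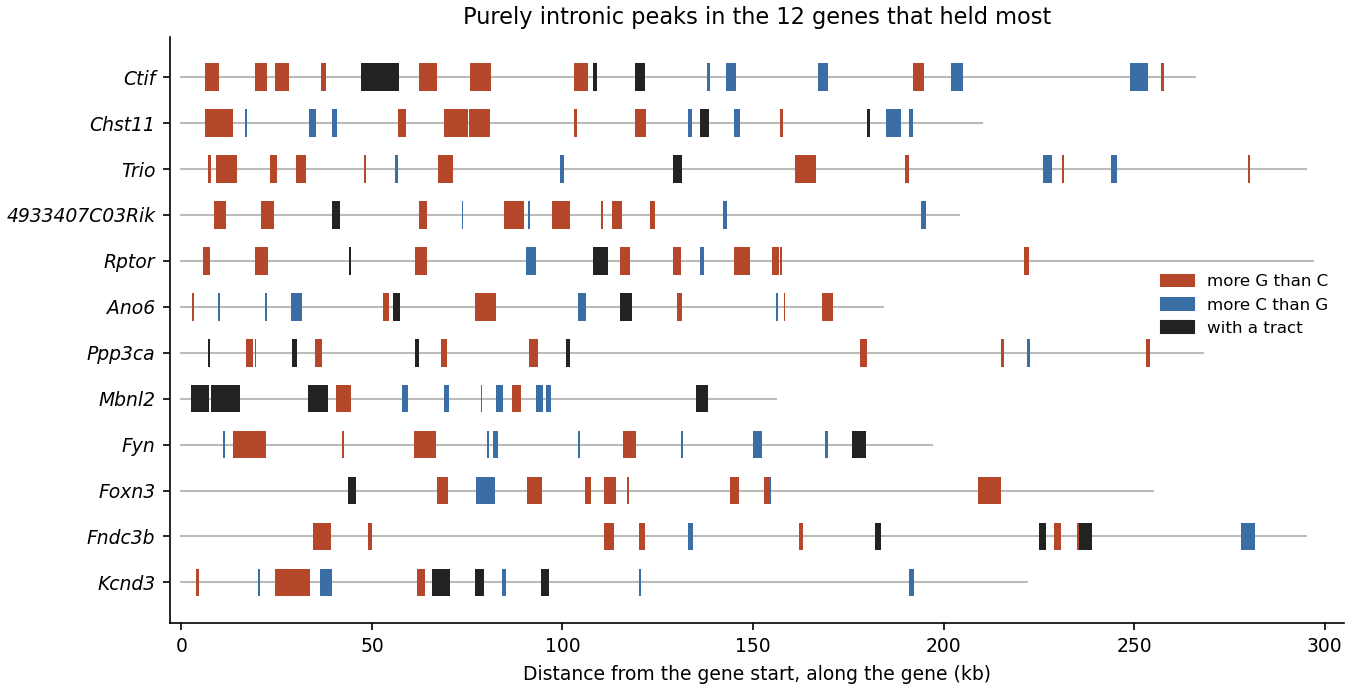
Purely intronic peaks along the 12 genes that held most, by distance from the gene start in kb. Boxes are peaks drawn to scale (at least 0.5 kb wide). Red boxes have more G than C on the coding strand, blue boxes more C than G or equal numbers, and black boxes a tract of 2 letters. Ctif held 18 and Kcnd3 11, and peaks were spread over the length of each gene.

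Some smaller genes were covered more densely. Among hosts with at least 3 peaks and 10 kb of intron, Ubtd1 had the largest portion of its intron bases covered, 51.2%, by 6 peaks that all lay in the first of its 2 introns. They were 0.610, 0.694, 6.67, 6.91, 8.95 and 2.46 kb wide, ran from 6.32 to 44.6 kb from the TSS, and 2 of the 6 had more G than C. In Lmna, the gene of lamins A and C, 3 first intron peaks covered 40.8%, nearly all of it by a single peak of 6.60 kb. Lrrc29 followed with 39.0% in its second intron. Klf13, a zinc finger transcription factor gene with a single intron, had 38.7% of it covered by peaks of 9.17, 3.33 and 5.28 kb, with a skew of 0.0475, -0.0275 and -0.00903. In Sox13 (37.5%), which encodes an HMG-box transcription factor, peaks of 2.48, 8.38 and 3.31 kb in the first intron had a skew of 0.0432, 0.0911 and 0.113, all above 0, and a GC content of 53.3%, 53.0% and 53.3% compared with 49.0% in the remainder of the intron.

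The widest purely intronic peak, of 31.3 kb, lay in the first intron of Daam1, a formin gene that acts in Wnt signalling to the actin cytoskeleton, at chr12:72942435-72973754. It began 10.4 kb from the TSS, had a skew of 0.0326 and was separated by single bases from a pair of narrow peaks of 0.287 and 0.326 kb. The next widest were a peak of 25.5 kb in the first intron of Dip2b, beginning 1.11 kb from the TSS, 18.4 kb in the second intron of Col18a1, the collagen XVIII gene, 16.0 kb in the first intron of Mboat2, a lysophospholipid acyltransferase gene, and 15.5 kb in the second intron of Eif4g3, a translation initiation factor gene. All 5 had more G than C, with a skew between 0.0232 and 0.0706, and more T than A. Their GC content was within 2 percentage points of the remainder of the intron, from 44.4% against 45.1% in Daam1 to 51.3% against 49.6% in Col18a1.

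At the extremes of skew, among peaks of at least 500 bp, were short peaks, most of which consisted largely of tracts. The most G-rich were in Lin7a (skew 1), which encodes a synaptic scaffold protein, Ttc29 (0.977), Akap4 (0.966), which encodes a protein of the sperm flagellum, and Fsd2 (0.956). Lin7a, Ttc29 and Akap4 held 522, 502 and 537 tract bases in peaks of 0.522, 0.511 and 0.754 kb, while Fsd2 held none by this definition. The most C-rich were in 1700018B08Rik (-1), Gm3376 (-0.956), Ghr (-0.949), the growth hormone receptor gene, and Psme4 (-0.947), which encodes a proteasome activator, with 693, 571, 610 and 462 tract bases in peaks of 0.693, 0.571, 0.637 and 0.501 kb. The remainder of the intron had a skew near 0 in Lin7a (0.0106), Ttc29 (-0.0283) and Ghr (-0.00902), but of -0.802 in Gm3376 and -0.458 in 1700018B08Rik.

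Purely intronic peaks were also counted in lists of genes with a common function or lineage, of which the members found under 300 kb are given, beside all protein-coding genes under 300 kb, of which 15.8% held one at 9.31 peaks per Mb of intron. Because the share increases with gene length, the density is given as well. Among neural stem and astroglial genes, 16 of 56 held a peak, and 53 peaks amounted to 24.2 per Mb. Ptprz1, a receptor tyrosine phosphatase gene, held 9, 4 of them in the first intron. Slc1a3, the astroglial glutamate transporter, held 8 peaks that covered 30.7% of its introns. These lay in introns 2, 3, 6 and 9, had skews of 0.0665, 0.167, 0.0472, 0.0290, 0.157, 0.0190, 0.0931 and -0.2 from the 5′ to the 3′ end, and hence more G than C in 7 of 8. Rfx4, a transcription factor gene of the developing brain, held 6, with 3 of them G-rich.

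Genes of signalling pathways, chromatin and RNA processing were also among the hosts, at a density above that of all genes. A purely intronic peak was found in 18 of 59 Wnt and beta-catenin pathway genes (16.1 per Mb), with 9 in Gsk3b, 8 in Tcf7l2 and 5 in Apc, which encode a kinase, a transcription factor and a scaffold of the pathway. Of these, 8, 7 and 2 had more G than C, respectively. Among receptor tyrosine kinases 14 of 36 held a peak (13.8 per Mb), with 11 in Igf1r, 4 in Fgfr1 and 3 in Ryk. The counts were 10 of 37 for the Notch pathway (12.4 per Mb), including the co-activator genes Maml1 and Maml2, and 29 of 76 for chromatin remodelers and modifiers (13.6 per Mb), with 6 in Chd7 and 5 each in Arid1a and Dnmt3a.

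Splicing and RNA binding genes had a density of 16.4 per Mb, although the share that held a peak, 10 of 68 (14.7%), was near that of all genes. They had 12 peaks in Mbnl2, 5 in Rbfox2 and 4 in Qk. The 4 peaks of Qk had skews of 0.246, 0.156, 0.250 and 0.0986 at a GC content of only 35.6 to 39.5%.

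The remaining lists had a density below that of all genes. DNA replication and repair genes held one in 12 of 89 (5 per Mb), with no more than 2 in any of Orc3, Xrcc1 and Rfc1. Neuronal ion channel genes were hosts in 14 of 46 cases, a share of 30.4%, at 7.80 per Mb, and 13 of their 36 peaks held a tract. Lists were also drawn up for keratins, lymphoid cells and hepatocytes, and whether their genes were transcribed in NSPCs was not examined here. A purely intronic peak lay in 1 of 46 keratin genes (4.24 per Mb), 4 of 40 lymphoid genes (2.91 per Mb) and 5 of 43 hepatocyte genes (6.68 per Mb). Of the 6 peaks in hepatocyte genes, 5 held a tract, against 0 of 4 in lymphoid genes and 0 of 1 in keratin genes. In the neural stem and astroglial list 10 of 53 peaks held one, compared with 17.8% of all purely intronic peaks. With peaks of at least 1 kb only, hosts among all genes fell from 3441 to 1722, or 7.88%. The hosts fell to 9 for the Wnt list, 7 for receptor tyrosine kinases, 5 for replication and repair and 7 for ion channels. They fell to 1 for hepatocyte genes and to 0 for keratin and lymphoid genes. Chromatin genes kept 25, the neural stem and astroglial list 11, and the Notch and splicing lists 7 each. With hosts under 100 kb, 2461 hosts remained in all, 12.3% of genes of that size. The list hosts fell to 7 for the neural stem and astroglial list, 8 for Wnt, 7 for receptor tyrosine kinases, 13 for chromatin, 6 for splicing and 4 for ion channels. The Notch list kept 8, replication and repair 11, and keratin, lymphoid and hepatocyte genes 1, 3 and 4. How many genes of each list are under 100 kb is not given here. Median gene length differed between the lists, from 6.55 kb for keratins to 88.7 kb for neuronal ion channels, and its part in the counts was not tested.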

How the data were processed

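NSPC DRIP-seq is labelled as 1 sample, which per the paper combines several biological replicates with repeat DRIP reactions, and an input sample was not used here. Per the paper's methods and the labels, the authors trimmed reads (Trim Galore 0.6.6), mapped them to the mm9 genome, discarded duplicate reads and used a caller based on a Hidden Markov Model. They deposited peak positions in bp with no count, signal or score, so depth per sample is unknown and no test between samples was possible. The settings of the peak caller and the merging of replicates are not given in the sources used here.

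Peaks were placed on the GENCODE M1 genes of mm9, and bases were read from the mm9 sequence on the strand of the host. Exon overlap was counted from 1 bp. Distance was measured from the nearest edge of the peak to the 5′ end of the gene. Members, gene lists and the rule for named genes were chosen with earlier results of these data known, and the definition of a tract was added after seeing the data. The rule names the 12 genes with most peaks, the 5 with the largest covered share of intron, the hosts of the 5 widest and of the 4 most G-rich and 4 most C-rich peaks of at least 500 bp, and up to 3 genes per list. Sequences were printed for a subset of these, and some genes, sequences and 1 list are not reported here. The placement and composition steps were tested on simulated data. Alternatives covered peak size, merging, autosomes, exon definition, gene size, other genes at the peak, 1 peak per gene, transcript choice, distance definition and distance from starts. Tools were numpy 2.4.6 with scipy 1.17.1 under Python 3.11.15, and plots were drawn with matplotlib 3.10.9.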

Additional observations from a re-analysis of the deposited data

How the results depend on the processing

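Of 113 values recomputed under the alternatives, 77 stayed within the interval of the reported value or, for counts, within 1.5 times. The median GC skew, the only result that could change sign, stayed positive. With peaks of at least 1 kb only, 2675 peaks and 1722 hosts (7.88% of genes) remained in the count, 40.9% of peaks lay in the first intron, 72.4% had more G than C with a median skew of 0.0534, 60.9% had a skew above the rest of the intron, 31.3% had more A than T, 1.63% of first intron bases were covered and 16.3% held a tract. With peaks closer than 1 kb merged, 15.2% of genes were hosts, first intron coverage was 1.91% and the tract share 18.9%. With hosts under 100 kb, there were 3457 peaks in 12.3% of genes, at a median of 15.7 kb from the TSS, with 39.8% in the first intron, 2.06% coverage and a tract share of 15.1%. With 1 peak per gene, the widest, there were 3372 peaks at a median of 19.1 kb, with a GC content of 46.9%, first intron coverage of 1.32% and a tract share of 20%. First intron coverage was 2.04% on autosomes, 2.01% with exons of protein-coding genes only, 1.93% without peaks also inside a gene of 300 kb or more and 1.84% for peaks inside no other annotated gene, for which 14.8% of genes were hosts.

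The transcript with the most exons gave 35% in the first intron, and the nearest start of any host transcript a median distance of 12.3 kb. Without tract peaks, an alternative chosen after seeing the data, 66.8% had more G than C, 57.7% had a skew above the rest of the intron, and the median distance was 25.7 kb. A tract defined by 90 or 98 of 100 bases, also chosen later, gave 27.8% and 13.7% of peaks. The number of list genes with a peak moved by over 1.5 times in 15 of 96 cases. The cause of these differences was not tested. Base composition outside repeats was not run, since the sequence used here marks none. No paired analysis was possible because 1 peak list was analysed. Without scores, weak and strong peaks count alike.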
